A study of Arabidopsis thaliana with 20 samples.

Results

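This comparison set leaves of Arabidopsis thaliana accession Col-0 infiltrated with polyethyleneimine-functionalized single-walled carbon nanotubes (PEI-SWNTs) against leaves that were not infiltrated at all. Its members were the count columns of 5 PEI-SWNT libraries and 5 non-infiltrated libraries, 10 of the 20 samples of the series, and every gene expressed above a low level (16288 of the 37336 genes counted) was tested. The PEI-SWNTs were infiltrated through the underside of young leaves of 6-week-old plants, 40 µL at 50 ng/µL, and leaves were collected 2 days later. They carried a plasmid that expresses green fluorescent protein. Non-infiltrated leaves of the same accession and age received no liquid. Each library pooled 4 leaves taken from different plants. The other 10 samples were leaves infiltrated with water or with un-functionalized SWNTs that carried RNA, and they enter here as a shared estimate of the spread and as values set beside those of PEI-SWNTs. The comparison thus joined the act of infiltration, the nanotube, the polymer and the plasmid, and their parts cannot be told apart from these 10 samples.

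Leaf cells perceive microbes and damaged cells through receptor kinases at the cell surface and through NLR receptors (nucleotide-binding, leucine-rich repeat proteins) inside the cell. Both lead to the synthesis of salicylic acid, which switches on pathogenesis-related (PR) genes, many of them through WRKY transcription factors. Crucifer leaves are also stocked in advance with glucosinolates, sulfur-rich compounds made from amino acids, and with myrosinases and other β-glucosidases that release toxic products from them when tissue is broken. Jasmonate, the hormone of wounding and chewing, promotes much of this second system.

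The non-infiltrated libraries held 23138648 to 29737496 counts on genes and the PEI-SWNT libraries 13387714 to 21943422. Levels are given as CPM, the counts of a gene scaled to a common library total after TMM normalisation, and differences as log2 fold changes of PEI-SWNT over non-infiltrated leaves with their standard errors. A gene was called up- or down-regulated where the edgeR quasi-likelihood test gave an adjusted p (Benjamini-Hochberg, over all genes tested) under 0.05 and the change was at least 2-fold. PEI-SWNT replicate 5 stood apart from the other 4 of its group. It had the highest level of the group in 560 of the 1024 down-regulated genes and the lowest in 576 of the 1380 up-regulated genes. Values without it are given below for many of the genes whose call it decides. In the gene groups below, BCAT3 (-1.09) and XTH6 (-1.13) were also down-regulated without it, NAC3 (1.36) was up-regulated and NAC062 (0.945) was no longer called. In whole leaves, fewer cells of one type and less RNA per cell cannot be told apart. The labelled tissue was borne out by its markers: antenna protein genes of photosynthesis made up 92968 to 113221 CPM in the non-infiltrated libraries, and the flower markers AG, AP1 and AP3 had at most 12 counts in any of these 10 libraries, while PI, the fourth flower marker, had 0 to 11 counts in non-infiltrated and 28 to 91 in treated libraries.

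After PEI-SWNT infiltration 1380 genes were up-regulated and 1024 were down-regulated, 8.47% and 6.29% of the genes tested. These shares are given as the background of each gene group below. The groups were chosen with earlier results of these data known, so their counts are descriptions, and no enrichment was tested. An adjusted p under 0.05 in either direction was far more common, at 61.6% of genes, and 7628 of these genes changed by less than 2-fold. The median log2 fold change of all genes tested was -0.02. Rises were larger than falls: 295 genes rose by at least 8-fold and 56 fell by as much, and past 32-fold there were 81 against 1. The CPM ranges of the groups were apart in 1279 of the up-regulated and in 869 of the down-regulated genes. Over all genes, 22.6% lay wholly higher and 19.3% wholly lower in PEI-SWNT leaves. The up-regulated genes took 2.83 ± 0.19% of all counts in non-infiltrated leaves and 10.4 ± 0.62% after PEI-SWNTs (mean ± SD, n = 5). The down-regulated genes went from 6.07 ± 0.53% to 2.2 ± 0.26%. Among up-regulated genes the median SD of log2 CPM was 0.380 in non-infiltrated and 0.230 in PEI-SWNT leaves, where all genes tested had 0.170 and 0.157. Among down-regulated genes it was 0.332 and 0.366. The groups also differed in level: up-regulated genes had a median of 3.42 and 15.9 RPKM (CPM per kilobase of exon) in non-infiltrated and PEI-SWNT leaves. The 1008 down-regulated genes held by the annotation had 6.82 and 2.21 RPKM. The part of level, and of the level minimum for testing, in these SDs and in the larger size of the rises was not tested.

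Many of the largest rises were in genes that were close to silent in untouched leaves. The 8 genes given here were picked from called genes whose groups do not overlap, so that separation was set by the choice. All of them but PCR1 averaged under 1 RPKM in non-infiltrated leaves, the level minimum for testing, and passed it only through other samples. Their low untreated level is thus no added result either. PR1, which encodes a secreted protein and is the usual marker of the salicylic acid response, had 0.747, 0.0394, 0.486, 0.496 and 0.543 CPM in the 5 non-infiltrated libraries. After PEI-SWNTs it had 68.7, 83.7, 67.0, 115 and 64.9 CPM. Every treated library thus exceeded every untreated one, and the log2 fold change was 7.41 ± 0.38 (edgeR adjusted p = 7.8e-12). AIG1, named for its induction by a bacterial avirulence gene, went from 4.73, 0.315, 1.08, 0.745 and 0.543 CPM to 270.0, 319, 300.2, 299 and 233 CPM. Non-infiltrated replicate 1 was the highest of its group, but the groups were still far apart, and the log2 fold change was 7.61 ± 0.48, or 8.69 without that library. PCR1, named for cadmium resistance in yeast cells, had 2.45, 1.69, 0.636, 6.66 and 1.09 CPM in non-infiltrated leaves. It had 243, 340.2, 266, 362 and 197 CPM after PEI-SWNTs, again without overlap, at a log2 fold change of 6.84 ± 0.49. CML41, a calmodulin-like protein that senses calcium, rose from 0.543 ± 0.243 to 50.2 ± 12.1 CPM (SD, n = 5; log2 fold change 6.54 ± 0.29). AT2G27660, which encodes a protein rich in cysteine and histidine, rose by 6.96 ± 0.40 on the log2 scale. The leucine-rich repeat kinase gene AT1G51860 rose by 6.34 ± 0.42, the calcium-dependent lipid-binding gene AT4G00700 by 6.30 ± 0.24 and AT5G25260, of which 20.1% of the exonic length is shared with another gene, by 6.25 ± 0.42. Without non-infiltrated replicate 4 the log2 fold changes of PCR1 and AT5G25260 became 7.58 and 6.98.

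**Figure D1:**
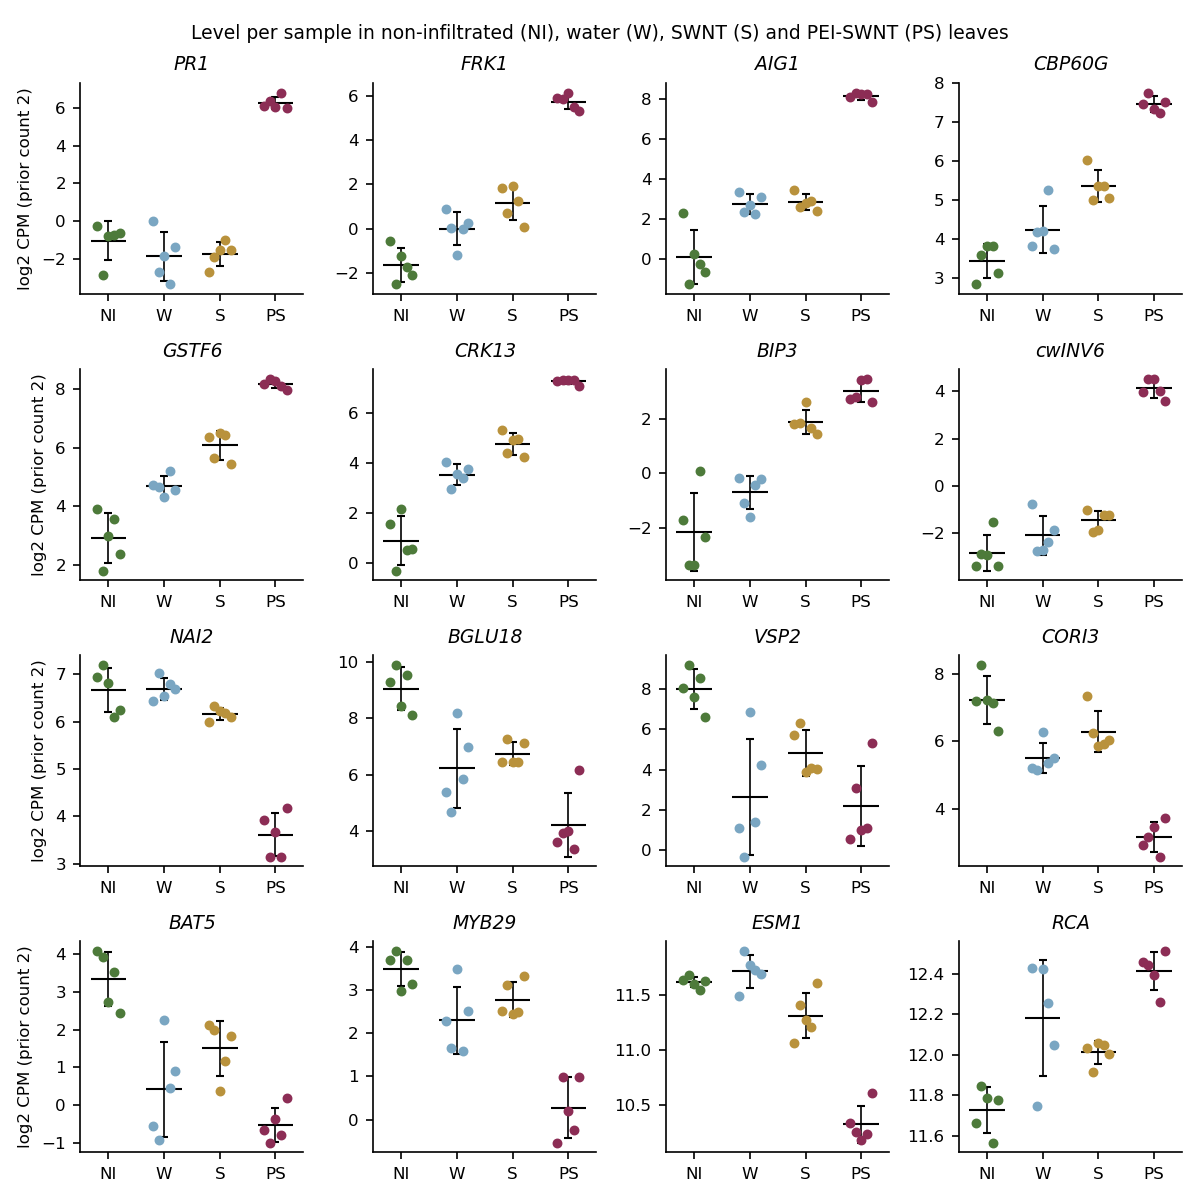
Levels of 16 genes (log2 CPM with a prior count of 2, y axes that differ between genes and do not start at 0) in non-infiltrated (NI), water (W), SWNT (S) and PEI-SWNT (PS) leaves. Each point is 1 of 5 libraries per group, with the mean and SD in black; the 8 genes of the upper rows were up-regulated by PEI-SWNTs against non-infiltrated leaves, the 7 from NAI2 to ESM1 were down-regulated, RCA was under 2-fold (0.69), and PEI-SWNT replicate 5 is the highest treated point for VSP2 and BGLU18.

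The promoters of some strong responders show what these genes carry beside their start. WRKY factors bind the W-box, whose core is TTGAC on either strand (read as GTCAA on the other). The 250 bases before the annotated start are printed for 3 genes that rose and 2 that fell, 5′ to 3′ on the gene's own strand, from the RefSeq annotation of assembly TAIR10.1, with each W-box core in capitals.
AT2G27660 (chr2:11800929-11801178, minus strand): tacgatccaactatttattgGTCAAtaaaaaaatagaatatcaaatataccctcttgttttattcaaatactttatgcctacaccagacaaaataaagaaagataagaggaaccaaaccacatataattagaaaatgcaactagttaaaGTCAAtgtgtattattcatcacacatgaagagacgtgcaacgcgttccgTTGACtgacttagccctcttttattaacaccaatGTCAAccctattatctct
AT1G51860 (chr1:19261795-19262044, minus strand): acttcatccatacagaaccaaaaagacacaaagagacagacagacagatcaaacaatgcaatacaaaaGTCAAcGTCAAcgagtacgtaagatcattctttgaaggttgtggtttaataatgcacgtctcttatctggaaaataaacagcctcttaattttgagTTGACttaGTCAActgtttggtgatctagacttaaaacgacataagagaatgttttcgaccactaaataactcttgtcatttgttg
FRK1 (chr2:8329945-8330194, minus strand): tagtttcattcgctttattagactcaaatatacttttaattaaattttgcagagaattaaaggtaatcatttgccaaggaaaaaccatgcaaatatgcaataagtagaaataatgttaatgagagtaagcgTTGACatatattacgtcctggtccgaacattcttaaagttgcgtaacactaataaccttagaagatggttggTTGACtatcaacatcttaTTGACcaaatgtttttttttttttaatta
VSP2 (chr5:8502225-8502474, minus strand): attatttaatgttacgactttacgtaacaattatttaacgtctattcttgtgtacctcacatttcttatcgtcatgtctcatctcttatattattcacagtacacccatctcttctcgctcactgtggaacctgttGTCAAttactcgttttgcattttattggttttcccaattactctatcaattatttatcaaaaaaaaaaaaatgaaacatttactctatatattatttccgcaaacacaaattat
NAI2 (chr3:5402654-5402903, minus strand): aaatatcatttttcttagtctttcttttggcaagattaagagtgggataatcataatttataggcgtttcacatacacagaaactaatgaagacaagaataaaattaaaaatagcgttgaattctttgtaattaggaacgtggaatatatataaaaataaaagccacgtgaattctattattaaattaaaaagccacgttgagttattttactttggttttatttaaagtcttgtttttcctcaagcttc
The promoter of AT2G27660 held 4 cores, that of AT1G51860 4 and that of FRK1 3. VSP2 held 1 and NAI2 none. Among the 8 genes with the largest rises (of those with a mean of at least 10 counts in the lower group), 5 had at least 1 core in these 250 bases and 4 had at least 2. Among the 8 with the largest falls by the same rule, 2 had 1 and 0 had more. Of the 16148 tested genes that had a nuclear promoter in the annotation, 44.3% had at least 1 core in this window and 14.0% had at least 2. The printed promoters are examples: AIG1, PCR1 and CML41, among the 8 rises, held 0 cores and PR1 held 1, while FRK1 was not among the 8.

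Over all genes the same letters were more frequent before up-regulated genes. In the window from 250 bases before to 50 after the start, a W-box core was present in 64.6% of 1380 up-regulated promoters (95% Wilson interval 62.1 to 67.1%), in 44.7% of 1008 down-regulated ones (41.7 to 47.8%) and in 50.5% of the promoters of 16148 tested genes. Tested genes without a nuclear promoter in the annotation are left out of these counts. Promoters with at least 2 cores made up 29.8%, 13.5% and 17.9%. The G-box, CACGTG, a palindrome bound by bHLH and bZIP factors, had the opposite order, with 7.75% of up-regulated, 12.1% of down-regulated and 9.13% of all promoters. TGACG, the core that TGA factors bind, was found in 25.9%, 21.5% and 23.9%. It shares 4 letters with the W-box core, so matches of the 2 motifs can overlap. The site II element of housekeeping and translation genes, TGGGCC, was rarer in both directions, at 10.14% and 10.02% against 20.1%, and AAAATATCT, the evening element of clock-regulated genes, differed little (3.62%, 3.77% and 3.07%). All motifs were searched on both strands, and a match is a run of letters, not a bound site. Changed genes of either direction also had fewer exons, with a median of 3 against 5, and 24.0% of up-regulated and 23.3% of down-regulated genes had a single exon against 15.1% of all tested.

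**Figure D2:**
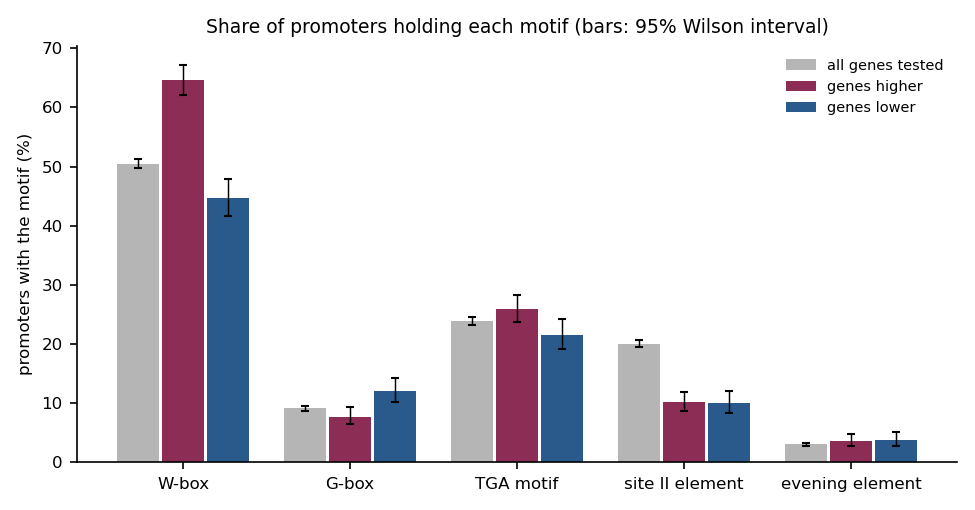
Share of promoters (%, y axis) that hold each of 5 motifs on either strand, from 250 bases before to 50 after the start, for all genes tested, genes up-regulated and genes down-regulated by PEI-SWNTs against non-infiltrated leaves; error bars are 95% Wilson intervals. The W-box is in 64.6% of up-regulated and 44.7% of down-regulated promoters, and the site II element is in about 10% of both against 20.1% of all.

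Salicylic acid genes rose almost throughout. Of 25 list entries 18 were expressed highly enough to test, 16 were up-regulated and 0 down-regulated, with a median log2 fold change of 2.33, where 8.47% of all genes rose. The level minimum was a mean of 1 RPKM over all 20 samples. For 2 of the 18, the mean of the non-infiltrated leaves alone was under it. Below, a gene said to pass only through its higher group, or the treated leaves, was under that minimum in the lower group. Water and SWNT libraries also count towards the minimum and were not looked at for this. The regulators were among the larger rises. CBP60G, a calmodulin-binding factor that activates the pathway's key enzyme gene, had 7.01, 11.9, 14.0, 14.0 and 8.55 CPM in non-infiltrated leaves. It had 178, 217, 163, 151 and 183 CPM after PEI-SWNTs, without overlap, and rose by 4.01 ± 0.29 (edgeR adjusted p = 6.8e-10). Its partner SARD1 rose by 4.38 ± 0.21. EDS16, also known as ICS1, is the enzyme, isochorismate synthase, and it went from 11.9, 15.1, 9.31, 18.0 and 18.5 CPM to 54.2, 54.5, 50.3, 45.8 and 54.5 CPM. Those groups did not overlap either, but the rise was smaller, 1.83 ± 0.17. Downstream of it, the isochorismate exporter gene EDS5 rose by 1.69 ± 0.18, and PBS3, whose product joins isochorismate to glutamate, by 4.35 ± 0.30. EPS1, the acyltransferase of the last step, was not up-regulated, and its log2 fold change was -0.85 ± 0.12.

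The genes that relay and dampen the salicylic acid signal rose as well. EDS1, a lipase-like protein that NLR receptors signal through, had 24.4, 15.8, 16.9, 21.7 and 19.8 CPM in non-infiltrated leaves and 131, 145, 121, 119 and 122 CPM in treated leaves. Its groups were widely separated and its rise was 2.69 ± 0.13, with 2.44 ± 0.11 for its partner PAD4 and 1.99 ± 0.12 for SAG101. The salicylic acid receptor genes NPR1, NPR3 and NPR4 rose by 1.29 ± 0.08, 2.22 ± 0.21 and 1.84 ± 0.16. The hydroxylase genes that inactivate the hormone were among the strongest of the list, DMR6 at 3.68 ± 0.26 and DLO1 (AT4G10500) at 5.85 ± 0.45, the latter 6.44 without non-infiltrated replicate 1. Some members were too low to test. FMO1, which makes N-hydroxypipecolate, a mobile signal of systemic resistance, had 0 to 1 counts per non-infiltrated library and 18 to 34 per treated library. Against the floor of 3 counts per library, both groups of ALD1, which acts before it, were at or near nothing (0 to 3 and 1 to 5 counts), so no fold was formed. ICS2, the minor isochorismate synthase gene, had 49 to 99 counts in non-infiltrated and 5 to 20 in treated libraries.

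PR genes followed. Of 13 list entries 6 could be tested, and each of these 6 was up-regulated, with a median log2 fold change of 4.54, and 2 of the 6 passed the level minimum only through the treated leaves. Their summed level was 25.4 to 34.4 CPM in non-infiltrated and 355.6 to 439 CPM in treated libraries. BGL2, the β-1,3-glucanase PR2, had 4.15, 4.85, 2.02, 7.53 and 1.83 CPM in non-infiltrated leaves. It had 87.4, 108, 91.9, 68.5 and 93.0 CPM after PEI-SWNTs, with no overlap and a rise of 4.47 ± 0.31. PR5, a thaumatin-like protein, rose by 2.68 ± 0.26 and PR4, a chitin-binding protein, by 2.49 ± 0.26. PDF1.2, the defensin gene that jasmonate and ethylene induce, was not tested, with 0 to 33 counts in non-infiltrated and 0 to 7 in treated libraries.

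Cell-surface receptors of microbial patterns divided by gene. Of 14 tested members of 16, 8 were up-regulated and 1 was down-regulated, with a median log2 fold change of 1.83, and 3 passed the level minimum only through their higher group. FRK1, a receptor-like kinase induced by bacterial flagellin, had 0.581, 0.0788, 0.337, 0.207 and 0.136 CPM in non-infiltrated leaves. In treated leaves it had 59.5, 57.2, 71.0, 45.6 and 40.2 CPM, with no overlap and a rise of 7.67 ± 0.40 (edgeR adjusted p = 1.1e-11). RLP23, the receptor protein for a peptide shared by many microbes, rose by 4.90 ± 0.19 and its adaptor kinase SOBIR1 by 3.13 ± 0.26. EFR, the receptor of bacterial elongation factor Tu, rose by 2.2 ± 0.15, the wall-associated kinase WAK1 by 3.30 ± 0.24 and the chitin receptor LYK5 by 2.05 ± 0.34. FLS2, the flagellin receptor, had a log2 fold change of 0.18 ± 0.12 and BAK1, co-receptor of both EFR and FLS2, one of 0.69 ± 0.06, and neither was called. LecRK-I.9 (DORN1), the receptor of extracellular ATP, was the one that fell, at -1.22 ± 0.14.

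The cysteine-rich receptor-like kinases (CRKs) on chromosome 4 rose together over most of their cluster. In the tandem cluster 16 of 19 genes were tested, 11 were up-regulated, 0 were down-regulated and the median log2 fold change was 2.88. Of the 16, 3 passed the level minimum only through the treated leaves and are among the 11, and the other 13 had a median of 2.24. CRK13 went from 2.82, 0.709, 4.38, 1.32 and 1.36 CPM to 156, 159, 158, 157 and 134 CPM, and the groups lay far apart, at a rise of 6.17 ± 0.35 (CRK13 shares a stretch of at least 100 identical bases with CRK22, AT4G23300). CRK7 rose by 5.11 ± 0.21, and CRK6, CRK14 and CRK18 by 3.98 ± 0.18, 3.93 ± 0.25 and 3.93 ± 0.28. In gene order, 11 tested genes in a row, from CRK5 to CRK15 (chr4:12117491-12160279, TAIR10.1), were up-regulated, by 1.74 to 6.17 on the log2 scale. The run held 9 CRK genes together with EP1 and AT4G23215. CRK16, which lies next to it, did not share the rise: its log2 fold change was -0.44 ± 0.16, and 38.2% of its exonic length is shared with another gene. CRK19, CRK21 and CRK22 were also under 2-fold, between 0.46 and 0.99, while CRK18 before them and CRK24 after them rose. CRK22 passed 2-fold without PEI-SWNT replicate 5 (1.05) or without non-infiltrated replicate 3 (1.06). Of the 8 tested genes before the run 1 was up-regulated and of the 12 after it 2. CRK20 and CRK23 were too low to test, with 1 to 2 and 3 to 17 counts in non-infiltrated libraries and 22 to 45 and 110 to 164 in treated libraries.

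**Figure D3:**
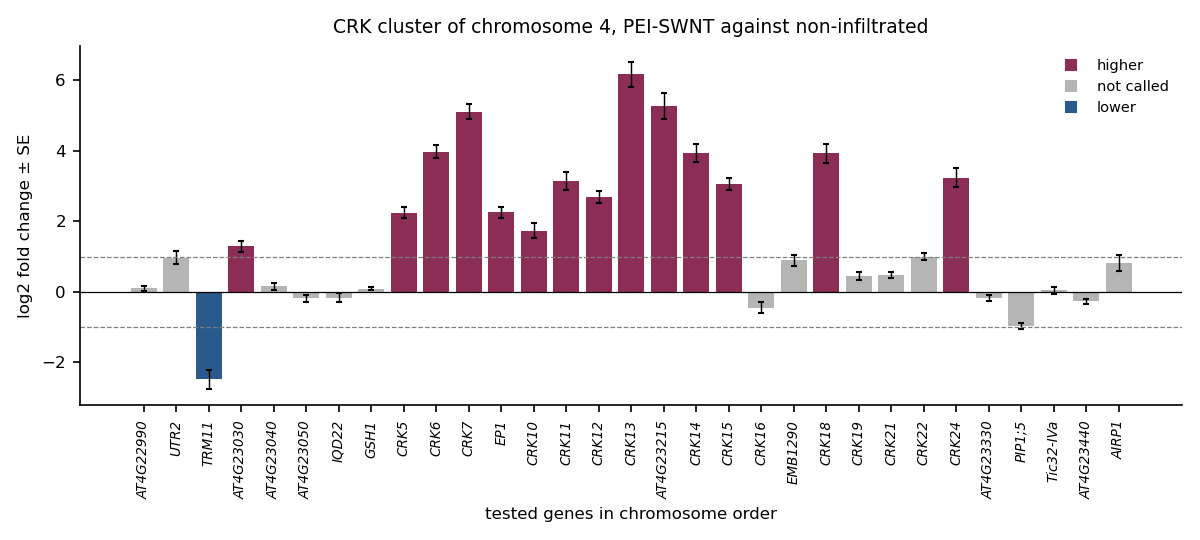
Log2 fold change of PEI-SWNT over non-infiltrated leaves (y axis, with standard error) for the genes tested along the CRK cluster and its flanks, in gene order on the x axis. The 11 genes in a row that were up-regulated range from 1.74 to 6.17, whereas CRK16 beside them is at -0.44.

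Runs of neighbouring genes with the same call were found elsewhere too. There were 15 runs of at least 4 consecutive tested genes up-regulated, with 73 genes in all, and 2 runs down-regulated, with 9 genes. On chromosome 1, 6 genes from AT1G65481 to ECI1 (chr1:24340736-24362054) rose together, ECI1 only just (it was under 2-fold without any 1 of 6 libraries), and so did 5 genes from AT1G72900 to AT1G72940 (chr1:27432178-27443859), among them the gene TIR. A second CRK group, CRK36, CRK37, CRK38 and CRK40 (chr4:2231717-2292965), and the AZI1 and EARLI1 group of lipid-transfer-like genes (chr4:7401087-7414955) formed 4-gene runs each. Of the falling runs, one of 5 genes (chr3:5556710-5599224) held NSP1, PBP1, JAL34 and JR1, lectin-like genes of the glucosinolate and jasmonate systems. The other of 4 genes (chr3:976715-983768) was SAUR26 to SAUR29, small auxin-up RNA genes, of which SAUR26 was under 2-fold without non-infiltrated replicate 5 (-0.97). Tandem genes often resemble each other, and reads that match several copies may have been shared or lost in counting.

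NLR receptors and cell death regulators had 7 up-regulated and 1 down-regulated of 15 tested, with a median log2 fold change of 0.96, which is close to the 2-fold limit, and 1 of the 7 passed the level minimum only through the treated leaves. MC2, a metacaspase that holds back cell death, had the largest rise, 4.89 ± 0.27. ADR1, a helper NLR, rose by 3.14 ± 0.14, and the NLR gene ZAR1 by 1.75 ± 0.13. MC1, a metacaspase that promotes cell death, and LSD1, which restrains it, stayed under 2-fold, at 0.85 ± 0.07 and 0.36 ± 0.07. The metacaspase MC9, known from dying xylem cells, fell, at -1.29 ± 0.35.

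The transcription factor families that act in these responses leaned one way. Of 41 WRKY genes tested of 72, 20 were up-regulated and 0 down-regulated, with a median log2 fold change of 0.97 (1.23 without non-infiltrated replicate 3). Of the 20, 2 passed the level minimum only through the treated leaves. WRKY51 had the largest, 5.22 ± 0.47 (5.86 without non-infiltrated replicate 1), and WRKY70, which promotes salicylic acid over jasmonate responses, rose by 3.18 ± 0.21. WRKY69 was at the other end, at -0.82 ± 0.16. WRKY30 and WRKY38 were not tested, with 0 to 14 and 0 to 16 counts in non-infiltrated and 32 to 65 and 28 to 67 in treated libraries. Of 42 NAC genes tested of 100, 16 were up-regulated and 1 was down-regulated, and the median was 0.79. NAC090 led with 5.05 ± 0.70 and NAC097 was the one that fell, at -2.04 ± 0.36 (-2.65 without PEI-SWNT replicate 5). Of the NAC genes 10 had passed the level minimum only through their higher group, and of the other 32 there were 8 up-regulated and 0 down-regulated, with a median of 0.46.

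Genes of senescence rose in part. Of 16 tested, 7 were up-regulated and 0 down-regulated (median 0.67). BCB, a blue copper-binding protein, rose by 4.65 ± 0.26. NYE1, which starts the breakdown of chlorophyll, had 0.47 ± 0.09 and ACD1, known as PAO, which opens the chlorophyll ring, 0.49 ± 0.16, and neither was called. NAP, a NAC regulator of leaf senescence, rose by 1.04 ± 0.20, but was under 2-fold without any 1 of 3 libraries (lowest value 0.85, without non-infiltrated replicate 2). SAG12, the protease gene that marks late senescence, had 0 counts in each of the 10 libraries.

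The protein-folding machinery of the endoplasmic reticulum (ER) was raised together. Of 13 genes tested 11 were up-regulated and 0 down-regulated, the median log2 fold change was 1.4, and each of these 13 was higher in all treated than in all untreated libraries, where 22.6% of all genes were. Of the 11, 1 passed the level minimum only through the treated leaves. Their summed level was 614 to 706 CPM in non-infiltrated and 1649 to 2030.2 CPM in treated libraries. BIP3, the stress-inducible ER chaperone, had 0.207, 0, 0, 0.951 and 0.102 CPM in non-infiltrated leaves. It had 6.49, 6.77, 10.6, 10.9 and 6.02 CPM after PEI-SWNTs. The groups did not overlap, and the rise was 5.04 ± 0.56, or 6.62 without non-infiltrated replicate 4. CNX1, a calnexin that holds glycoproteins during folding, rose by 1.56 ± 0.11 and BZIP60, the factor that induces these chaperones, by 1.06 ± 0.17, the latter under 2-fold without PEI-SWNT replicate 2 (0.94) or 5 (0.98). Cytosolic heat shock genes moved less: 3 of 6 tested were up-regulated with a median of 0.86 (1 of the 3 passed the level minimum only through the treated leaves), HSFA2, a heat stress factor, rose by 1.48 ± 0.37, and HSP101, the chaperone that dissolves aggregates, had a log2 fold change of 0.17 ± 0.15.

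Detoxification and indolic defence rose in single branches. Of 17 glutathione S-transferases tested of 30, 7 were up-regulated and 1 was down-regulated (median 0.78). Of these calls, 2 of the rises and the fall were in genes that passed the level minimum only through their higher group, and the other 14 genes had a median of 0.62. GSTF6, which acts in the synthesis of the antifungal compound camalexin, had 14.7, 3.39, 7.74, 11.8 and 5.05 CPM in non-infiltrated leaves. It had 287, 328, 312, 278 and 249 CPM after PEI-SWNTs, without overlap, at a rise of 5.09 ± 0.34. GSTF7, its neighbour, shares at least 100 identical bases with it and rose by 4.78 ± 0.38, so the 2 values may not be independent. GSTU19, an abundant leaf transferase, had a log2 fold change of -0.25 ± 0.08. In the camalexin branch 4 of 8 genes were up-regulated and 0 down-regulated, and 2 of the 8 passed the level minimum only through their higher group, 1 of them up-regulated. PAD3, the cytochrome P450 of the last step to camalexin, rose by 4.21 ± 0.68 (4.86 without non-infiltrated replicate 4). WRKY33, which controls the branch, rose by 1.47 ± 0.56 but missed the adjusted p of 0.05 without any 1 of 5 libraries (1.26 to 1.29). CYP79B2, which converts tryptophan to the shared precursor of camalexin and indolic glucosinolates, had a log2 fold change of 0.04 ± 0.23.

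Tryptophan synthesis, which feeds that branch, had 3 up-regulated and 1 down-regulated of 10 genes (median 0.47). The tryptophan synthase alpha subunit gene TSA1 (AT3G54640) had 22.2, 32.6, 15.2, 25.7 and 18.6 CPM in non-infiltrated and 82.4, 89.3, 112, 77.9 and 63.5 CPM in treated leaves. The groups were apart and the rise was 1.89 ± 0.17 (edgeR adjusted p = 1.9e-08). TRP1, an enzyme earlier in the pathway, rose by 1.6 ± 0.15. ASA1, the gated first step, had 0.56 ± 0.22 and stayed under 2-fold. PAI1 fell, with a log2 fold change of -1.13 ± 0.13, but it shares at least 100 identical bases with PAI3 (AT1G29410), AT5G05580 and AT5G05590. PAI3, a member of the same list at -0.92, was also down-regulated without PEI-SWNT replicate 5 (-1.02), and the values of PAI1 and PAI3 may not be independent.

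Sugar transport and cell wall invertases, through which a leaf takes sugars up from the cell wall, had 4 up-regulated and 2 down-regulated of 11 (median 0.70), with 1 of the rises and 1 of the falls in genes that passed the level minimum only through their higher group. cwINV6, a cell wall enzyme of the invertase family, had 0, 0.0394, 0.0374, 0.248 and 0 CPM in non-infiltrated leaves. In treated leaves it had 15.5, 22.9, 22.9, 16.2 and 11.8 CPM. It was thus nearly absent from untouched leaves, and its log2 fold change of 8.04 ± 0.47 became 9.46 without non-infiltrated replicate 4, which held most of those counts. MSS1 (STP13), a hexose uptake carrier, rose by 2.38 ± 0.26, and the sugar exporter SWEET4 fell, at -1.91 ± 0.31.

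**Figure D4:**
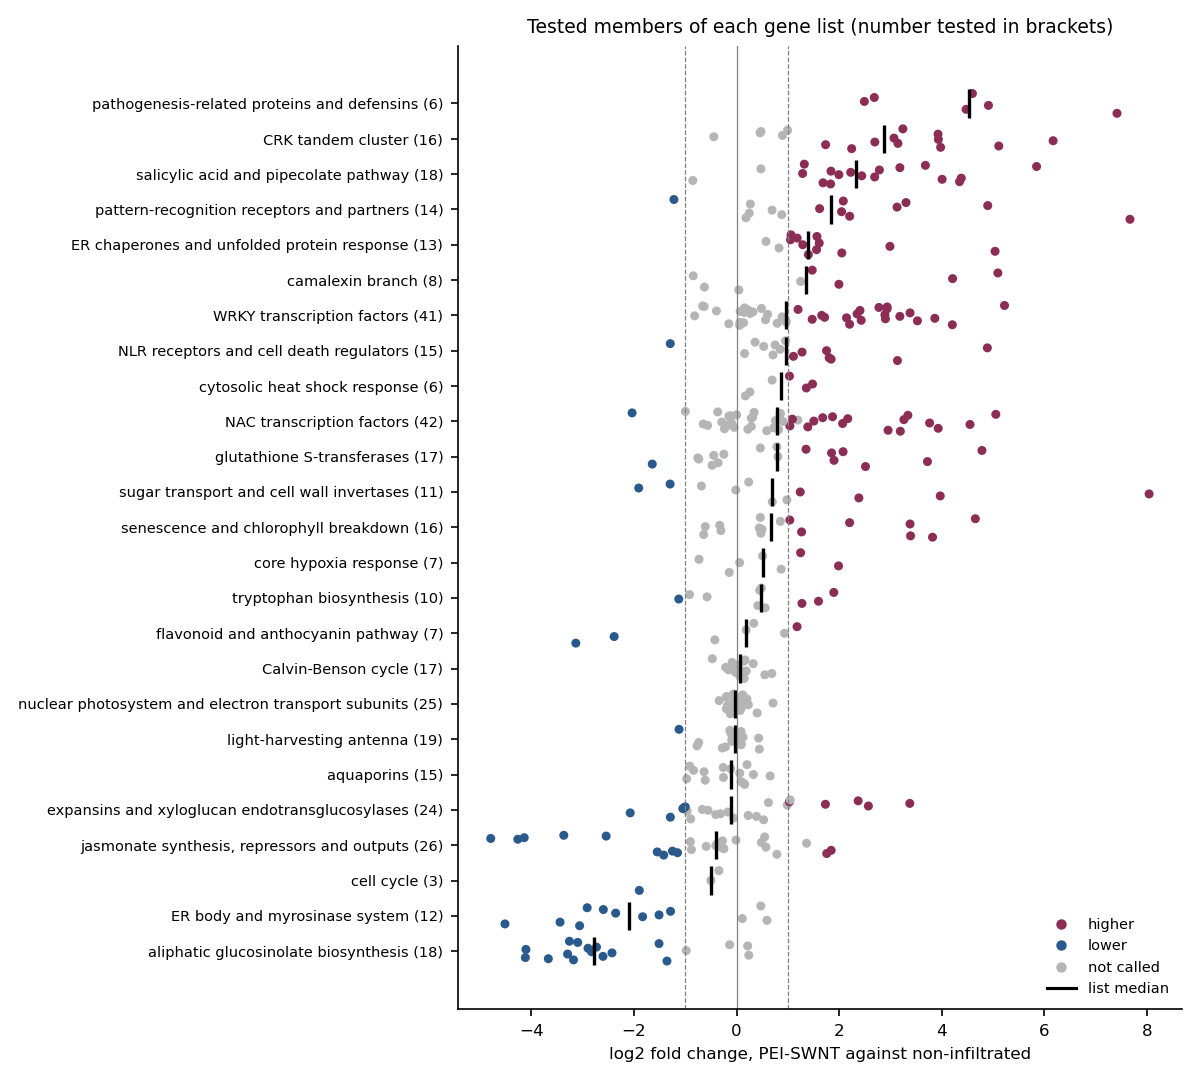
Log2 fold change of PEI-SWNT over non-infiltrated leaves for every tested member of the gene groups (points, 1 per gene) with the group median (bar); the dashed lines mark 2-fold. Salicylic acid, PR, CRK and ER chaperone genes lie mostly to the right, glucosinolate and ER body genes to the left, and photosynthesis groups sit around 0.

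Among the genes that fell, many of the largest changes were in the jasmonate and glucosinolate systems. The largest falls, too, were picked from called genes whose groups do not overlap, so their separation is no added result. Among them VSP1, IGMT5 and BAT5 averaged under 1 RPKM after PEI-SWNTs and passed the level minimum only through their higher group. VSP2, a vegetative storage protein with phosphatase activity that jasmonate induces, had 266, 596, 196, 376 and 97.8 CPM in non-infiltrated leaves. After PEI-SWNTs it had 1.37, 8.32, 1.87, 2.03 and 40.0 CPM. Treated replicate 5 stood far above the other 4 but still below every untreated library, and the log2 fold change was -4.79 ± 1.18 (edgeR adjusted p = 0.0016). VSP1 fell at -4.26 ± 1.03. Without replicate 5 the values were -6.49 for VSP2 and -6.48 for VSP1. CORI3, which is induced by the jasmonate mimic coronatine, went from 145, 306, 150.3, 140.0 and 78.7 CPM to 7.56, 8.89, 10.9, 5.94 and 13.2 CPM. In it the groups did not overlap and replicate 5 was less distant, at -4.14 ± 0.39. IGMT5, a methyltransferase of indolic glucosinolates, fell at -4.41 ± 0.76, the papain-family protease gene AT4G11320 at -4.47 ± 0.86 and AT2G43550, a defensin-like gene, at -4.22 ± 0.71. Without PEI-SWNT replicate 5 the last 2 were at -5.56 and -5.18, and without non-infiltrated replicate 2 IGMT5 was at -3.76.

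Over the whole jasmonate list the called falls were in synthesis and outputs. Of 26 tested genes 9 were down-regulated, where 6.29% of all genes fell, 2 were up-regulated and the median log2 fold change was -0.39. Of the 26, 3 passed the level minimum only through their higher group, 2 of them down-regulated. In synthesis, LOX2, the plastid lipoxygenase, fell at -1.42 ± 0.36 and AOS, allene oxide synthase, at -1.15 ± 0.26. OPR3, the reductase of a later step, had a log2 fold change of -0.25 ± 0.44 and was not called, and AOC3, an allene oxide cyclase, rose by 1.84 ± 0.61. AOS was under 2-fold without non-infiltrated replicate 2 (-0.87), and AOC3 missed the adjusted p of 0.05 without PEI-SWNT replicate 5 (1.45). Leaving out that treated library took the list's median to -0.91 and its up-regulated genes to 0, whereas these were 1 without non-infiltrated replicate 1 and 4 without non-infiltrated replicate 2. OPR3 was at 0.28 without the latter library. None of the 10 JAZ repressor genes tested was called, though TIFY7 (-0.90) was down-regulated without any 1 of 4 libraries, reaching -1.21 without PEI-SWNT replicate 5, and JAZ7 (1.36) was up-regulated without non-infiltrated replicate 2 (2.49). The summed level of the list spread widely among untouched leaves, 2211 to 7195 CPM, and was 1238 to 2801 CPM after PEI-SWNTs, so these sums overlapped.

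Aliphatic glucosinolate synthesis fell along most of its length. Of 18 genes tested of 22, 14 were down-regulated and 0 up-regulated, with a median log2 fold change of -2.78, and 5 of the 18 passed the level minimum only through the untreated leaves. The regulator MYB29 had 12.8, 14.8, 7.82, 12.9 and 8.68 CPM in non-infiltrated leaves. It had 0.595, 1.89, 1.05, 0.75 and 1.88 CPM after PEI-SWNTs, without overlap, at -3.18 ± 0.38. MYB28, its close relative, went from 91.4, 109, 122, 81.6 and 91.2 CPM to 32.6, 35.5, 42.1, 46.9 and 36.2 CPM. That fall was smaller, -1.36 ± 0.12, and the groups were again apart. BAT5, which carries chain-elongation intermediates into the plastid, had 17.0, 15.1, 6.58, 11.6 and 5.39 CPM in non-infiltrated and 0.536, 0.401, 0.675, 0.482 and 1.04 CPM in treated leaves. Its fall, -4.12 ± 0.55, was the largest of the list. BCAT4 and MAM1, which start the elongation of methionine, fell at -3.67 ± 0.64 and -2.60 ± 0.44. SOT17 and SUR1, which act in the core structure, and IIL1 did not: their log2 fold changes were -0.14 ± 0.25, 0.22 ± 0.11 and 0.24 ± 0.06.

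The enzymes that act on glucosinolates, and the ER bodies that store β-glucosidase, fell with it. Of 12 tested genes 9 were down-regulated and 0 up-regulated, with a median log2 fold change of -2.09, and the summed level went from 6195 to 7511 CPM down to 1903 to 2877 CPM. NAI2, which forms the ER bodies, had 124, 147, 114, 68.4 and 76.3 CPM in non-infiltrated leaves. It had 15.1, 8.78, 12.7, 8.78 and 18.0 CPM in treated leaves, without overlap, at -3.06 ± 0.22 (edgeR adjusted p = 7.0e-10). BGLU18, the β-glucosidase of leaf ER bodies, went from 624, 946, 344, 735 and 274 CPM to 12.2, 15.1, 16.1, 10.4 and 72.8 CPM. Replicate 5 was again the highest of the treated group, and the log2 fold change was -4.51 ± 0.68, or -5.47 without it. The other TSA1 (AT1G52410), an ER body protein, fell at -3.44 ± 0.52. TGG1, the myrosinase of guard cells and myrosin cells, fell at -1.51 ± 0.21. ESM1, which steers the products of myrosinase, had 3184, 3277, 3103, 2997 and 3155 CPM in non-infiltrated leaves and 1292, 1223, 1162, 1203 and 1559 CPM in treated ones. The groups were well apart, and its fall was -1.29 ± 0.10. MEB1, an ER body membrane protein, had a log2 fold change of 0.59 ± 0.26 and was not called.

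Growth-related and pigment genes showed mixed or small changes. Of 24 expansins and xyloglucan endotransglucosylases tested, 5 were up-regulated and 5 down-regulated (median -0.12), and the 5 that fell became 3 without non-infiltrated replicate 5 or PEI-SWNT replicate 3. Of the 24, 2 passed the level minimum only through their higher group, 1 of them up-regulated. XTR6 (XTH23) rose by 3.38 ± 0.48 and EXPA16 fell at -2.07 ± 0.26. In the flavonoid pathway 1 of 7 tested was up-regulated and 2 were down-regulated, 1 of these with a PEI-SWNT mean under the level minimum. TT4, chalcone synthase, fell at -3.13 ± 0.41, while C4H, which acts before it, rose by 1.18 ± 0.13. Of 12 cell cycle genes 3 were tested, each with a PEI-SWNT mean under the level minimum, and CYCD3;1, a D-type cyclin, fell at -1.90 ± 0.24. The median of the 3 was 0.59 after water and -0.50 after PEI-SWNTs, both against non-infiltrated leaves. None of 15 aquaporins was called, and PIP1;5 came nearest, at -0.97 ± 0.09, which passed 2-fold without any 1 of 3 libraries (lowest -1.04). DELTA-TIP, an aquaporin of the vacuole, was at -0.91 and passed 2-fold without PEI-SWNT replicate 5 (-1.10). Of the 7 core hypoxia genes tested of 17, 2 were up-regulated, led by LBD41 at 1.99 ± 0.20. ADH1, alcohol dehydrogenase, was not tested, with 32 to 57 counts in non-infiltrated and 22 to 44 in treated libraries.

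Nuclear photosynthesis genes were nearly all within 2-fold of their untreated levels. Of 19 antenna genes 0 were up-regulated and 1, Lhca6 at -1.12 ± 0.38, was down-regulated (under 2-fold without non-infiltrated replicate 5 or PEI-SWNT replicate 3), and neither any of the 25 photosystem and electron transport genes nor any of the 17 Calvin-Benson cycle genes was called. Their median log2 fold changes were -0.04, -0.04 and 0.06, or -0.14, -0.11 and -0.02 without PEI-SWNT replicate 5. Without that library LHCB2.3, an antenna gene at -0.74, was also down-regulated (-1.11). RCA, which reactivates Rubisco, was at 0.69 ± 0.10, PSBO2, a subunit of the oxygen-evolving complex, at 0.71 ± 0.09 and the Rubisco small subunit gene RBCS1A at 0.15 ± 0.12. Reads of plastid genes, by contrast, took a smaller share of the library, 5.57 ± 0.46% of counts in non-infiltrated and 3.85 ± 0.45% in treated leaves. This was a difference of -1.72 percentage points (n = 5 per group, exact two-sided permutation test p = 0.0079, the smallest it can give here, adjusted p = 0.016 over the 2 shares tested). Mitochondrial genes took 4.08 ± 0.55% and 3.41 ± 0.19% (exact permutation p = 0.032, adjusted p = 0.032), a difference that passed 0.05 in 4 of the 10 fits with 1 library left out. The mean plastid share was 4.80% after water and 4.94% after SWNTs. The mean mitochondrial share was 2.95% after water and 3.14% after SWNTs, both below that after PEI-SWNTs. The libraries were made from polyadenylated RNA, so these shares do not measure the organelles' own RNA pools.

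Cell-type markers moved beside these changes. The summed level of 4 guard cell markers was 67.0 to 83.8 CPM in non-infiltrated and 39.3 to 42.9 CPM in treated libraries, and 1 of the 4 was down-regulated: KAT1, a potassium channel of guard cells, at -1.55 ± 0.14. TMM, a receptor protein of the stomatal lineage, fell at -1.49 ± 0.24, and the other 4 lineage markers were too low to test. The 4 epidermal markers summed to 658 to 781 and 478 to 547 CPM, with PDF1 alone down-regulated, a gene that passed the level minimum only through its higher group (-2.99 ± 0.61), and the 4 phloem markers to 596 to 715 and 458 to 529 CPM, with none called. Of 4 xylem markers only XCP1, a cysteine protease, was tested, and it was at -0.90 ± 0.36 (edgeR adjusted p = 0.038). It was down-regulated without any 1 of 3 libraries, reaching -1.30 without PEI-SWNT replicate 5. The other 3, IRX1, IRX3 and VND7, were at mean levels of 3.26, 3.36 and 0.399 CPM in non-infiltrated and 1.16, 1.56 and 0.235 CPM in treated leaves. After water, TMM was at -1.92 against non-infiltrated leaves, and PEI-SWNTs against water gave 0.43 for it, which was not called. List medians after water and after PEI-SWNTs were -0.53 and -0.65 for guard cells and -0.39 and -0.19 for phloem. They were -0.08 and -0.57 for epidermis, and XCP1 was at -0.65 after water. The part of these cell types in the falls above was not tested.

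By amount of RNA per gene length, the largest gains and losses were in other genes than the largest folds. ECS1 rose from 676 ± 183 to 5394 ± 940.2 RPKM (CPM per kilobase of exon, mean ± SD, n = 5; log2 fold change 3.0 ± 0.22), and AT2G25510 from 936 ± 332 to 6947 ± 1142. EXT4, an extensin of the cell wall, rose by 3.48 ± 0.62 (4.60 without non-infiltrated replicate 3), GRP-3, a glycine-rich protein, by 1.1 ± 0.12, and AT5G42530 by 2.2 ± 0.28. UBQ10, a polyubiquitin gene often used as a reference in RT-qPCR, went from 1613 ± 219 to 3675 ± 191 CPM, a rise of 1.19 ± 0.08, though it shares at least 100 identical bases with another gene. On the losing side stood ESM1 as above, the peroxidase PRXR1 (-1.45 ± 0.09), KIN2, a gene of cold and drought responses (-1.25 ± 0.16), THI1 of thiamine synthesis (-1.06 ± 0.08), AT1G09310 (-1.26 ± 0.12) and the plastid-series locus ATCG00790 (-1.22 ± 0.19).

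Set beside water, the same genes show how much of each value was also present after infiltration alone. The water, SWNT and PEI-SWNT values against non-infiltrated leaves share the 5 non-infiltrated libraries, so they are given side by side and not as separate evidence. The median log2 fold change of the salicylic acid list was 0.66 after water, 1.28 after SWNTs and 2.33 after PEI-SWNTs, that of the CRK cluster 0.78, 1.41 and 2.88 and that of the ER chaperones 0.44, 0.69 and 1.4. Aliphatic glucosinolate genes stood at -1.62, -1.18 and -2.78 and ER body and myrosinase genes at -1.02, -0.80 and -2.09. The jasmonate list had its lowest median after water, -0.82, against 0.11 after SWNTs and -0.39 after PEI-SWNTs, and VSP2 was at -3.44 after water and did not pass the test between PEI-SWNTs and water (edgeR adjusted p = 0.3). VSP1, BAT5, KIN2 and ATCG00790 did not pass it either (edgeR adjusted p = 0.32, 0.055, 0.33 and 0.28). After water these 4 were at -2.92, -2.71, -1.07 and -0.97. The other genes named for the largest falls or losses in RPKM had an adjusted p under 0.05 against water. NAI2 (-0.02 after water, -3.06 after PEI-SWNTs) and PR1 (-0.56 and 7.41) were not called after water. TT4 (-3.09 and -3.13), HSFA2 (1.80 and 1.48) and PDF1 (-4.49 and -2.99) had at least about as large a value after water, and PEI-SWNTs against water gave 1.49 for PDF1 (edgeR adjusted p = 0.11).

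**Figure D5:**
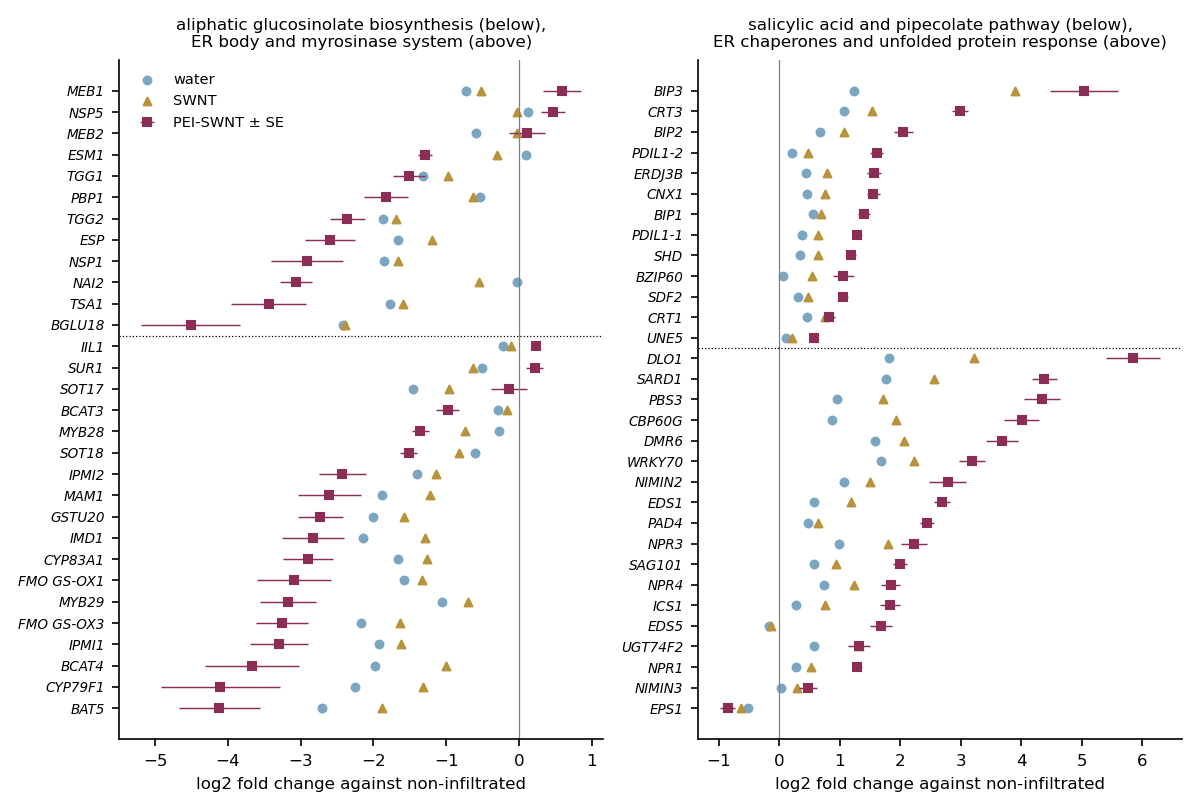
Log2 fold change against the same 5 non-infiltrated libraries (x axis) for each tested gene of 4 lists (1 row per gene), after water (circles), SWNT (triangles) and PEI-SWNT infiltration (squares, with standard error). Left, ER body and myrosinase genes above glucosinolate genes (TSA1 here is the ER body gene AT1G52410); right, ER chaperone genes above salicylic acid and pipecolate genes; NAI2 is at -0.02 after water and -3.06 after PEI-SWNTs, and EDS5 is at -0.16 and 1.69.

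Tested directly, PEI-SWNT leaves differed from water-infiltrated leaves in 999 genes that were higher and 566 that were lower, 6.13% and 3.47% of those tested, by the same edgeR criteria, and 51.9% of genes had an adjusted p under 0.05 in either direction. Of the 18 salicylic acid genes 15 were higher than in water, as were the 6 PR genes tested, 11 of the 16 CRK genes and 20 of the 41 WRKY genes. Of the 18 aliphatic glucosinolate genes 8 were lower and 1 higher, and of the 12 ER body and myrosinase genes 5 were lower and 1 higher. Of the jasmonate list only 2 of 26 were lower than in water and 2 were higher. PR1 had 0.912, 0.0537, 0.174, 0 and 0.288 CPM in the water libraries, and NAI2 had 86.2, 130.1, 92.6, 111 and 103 CPM. Both were thus near their non-infiltrated levels there, and PEI-SWNTs against water gave 7.98 and -3.04 on the log2 scale. The tryptophan list had a median of -0.43 after water and 0.47 after PEI-SWNTs, both against non-infiltrated leaves, and 4 of its 10 genes were higher in PEI-SWNT than in water leaves. TSA1 (AT3G54640) had 15.1, 12.9, 17.8, 16.6 and 20.5 CPM after water and was higher after PEI-SWNTs by 2.35 on the log2 scale (edgeR adjusted p = 3.4e-09).

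Of the genes that the study chose for RT-qPCR, 11 are described here, and 5 were up-regulated and 6 down-regulated by PEI-SWNTs against non-infiltrated leaves. They were chosen on these samples, so their count is not independent evidence, and 5 of the 11 passed the level minimum only through their higher group. PR1, PAD3 and NAI2 are given above, and CRK11 rose by 3.15 ± 0.24. CHX17, a cation/proton exchanger, rose by 5.57 ± 0.40 and AT2G43620, a chitinase family gene, by 3.27 ± 0.29. SPX1, a sensor of phosphate, fell at -1.96 ± 0.25, AGP41, an arabinogalactan protein, at -3.64 ± 0.41 (-4.59 without PEI-SWNT replicate 5), AT3G54830, which encodes an amino acid transporter family protein, at -3.43 ± 0.32, AT5G54130 at -1.42 ± 0.22 and AT2G15020 at -1.49 ± 0.29.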

How the data were processed

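The files hold RNA-seq read counts per gene for 20 libraries of poly-A selected leaf RNA, 5 per group. The authors trimmed reads with Trimmomatic, aligned them to TAIR10 with HISAT2 and counted them with featureCounts (2.0.1 in the submitters' processing notes); the deposited counts are raw. A second deposited table holds the authors' own edgeR comparisons (log2 fold changes, p-values and mean log2 CPM), which were not used, and gene lengths, of which 139 were used where the RefSeq annotation (TAIR10.1) gave none.

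A gene entered the tests when its RPKM averaged 1 or more over the samples (16288 of 37336). Counts were TMM-normalised and fitted with edgeR 4.0.16 (R 4.3.3, limma 3.58.1; quasi-likelihood, legacy=TRUE) over all 20 samples with 4 group means, and the contrast of PEI-SWNT minus non-infiltrated leaves was tested with Benjamini-Hochberg adjustment over all genes. The study tested the 3 treatments jointly; that test, DESeq2 1.42.0 and other filters, scalings and left-out libraries were alternatives. Scripts were tested on simulated counts. Log2 CPM for plots used a prior count of 2. Organelle shares were compared by exact permutation. A copy is a stretch of at least 100 identical exonic bases. Intervals cover counting error only.

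Members and gene lists were chosen with earlier results of these data known. Of 457 list entries, 10 were left out because the annotation gave their locus another name, and they are not counted. Named genes were the study's RT-qPCR genes, the 8 largest rises and falls without overlap and with a lower-group mean of at least 10 counts, the largest gains and losses in RPKM, the extremes of each list, key members written into the lists and the ends of gene runs; others are named with their values from the lists. Motifs were searched from 250 bases before to 50 after each RefSeq gene start. Tables and plots were made in Python 3.11.15 with pandas 2.3.3, scipy 1.17.1, numpy 2.4.6 and matplotlib 3.10.9.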

Additional observations from a re-analysis of the deposited data

Results flagged for a closer look

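Single libraries far from the rest of their group were looked for among the named genes, library depth and organelle shares, with Dixon's test at its 95% critical value for 5 samples (0.71). Of 292 groups of 5 libraries, 24 held such a value. The nominal rate of about 1 in 20 is no baseline for this count. CPM were not log-transformed, genes share libraries and the genes were chosen on these data. PEI-SWNT replicate 5 accounted for 12 of them. In the genes that fell it was the highest of the treated group: VSP2 was at 40.0 CPM, where the other 4 treated libraries had 1.37 to 8.32, BGLU18 at 72.8 (others 10.4 to 16.1), AT4G11320 at 23.8 (1.67 to 6.71), VSP1 at 3.67 (0.0535 to 0.375), JR1 at 82.7 (16.7 to 35.6), NAC097 at 0.988 (0.229 to 0.375) and PRXR1 at 1034 (935 to 951). It was also the highest for the photosynthesis genes CAB1, at 32993 CPM (26340 to 28225), and RBCS1A, at 9240 CPM (6201 to 7006). In genes that rose it was the lowest: CRK13 at 134 CPM (156 to 159) and GSTF7 at 115 (141 to 151). The chlorophyll breakdown gene NYE1 was lowest there too, at 30.5 (35.4 to 37.1).

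The other 12 were scattered. In the non-infiltrated group AIG1 was at 4.73 CPM in replicate 1 (others 0.315 to 1.08), EXT4 at 346 in replicate 3 (9.85 to 79.2), BIP3 at 0.951 in replicate 4 (0 to 0.207) and cwINV6 at 0.248 in the same library (0 to 0.0394). Replicate 2 was highest for the jasmonate synthesis genes OPR3, at 199 (47.4 to 81.2), and AOS, at 872 (362 to 456), for KIN2, at 1491 (999 to 1132), and for PSBQ-2, at 2470 (2126 to 2224). Replicate 5 was highest for SAUR26, at 4.85 (1.83 to 2.57), and lowest for AT1G65481, at 0 (0.112 to 0.124). In the treated group EFR was at 21.5 in replicate 2 (16.5 to 17.0) and WRKY69 at 4.82 in replicate 4 (4.09 to 4.3).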

How the results depend on the processing

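The alternatives changed how many genes were called more than which way they went. No called named gene changed sign, but 3 that were not called did: with single libraries left out OPR3 ranged from -0.65 to 0.28, CYP79B2 from -0.074 to 0.32 and SUC2, a phloem marker, from -0.10 to 0.027, and SUC2 was at 0.0034 with edgeR's own level filter. Against non-infiltrated leaves the 1380 up-regulated genes became 893 when the test itself required a change larger than 2-fold (edgeR's glmTreat) and 2372 with a 1.5-fold minimum. The 1024 down-regulated genes became 380 and 2405 under the same changes and 1927 when every gene with at least 1 count was tested. Leaving out single libraries gave 1286 to 1463 up-regulated and 989 to 1230 down-regulated genes, the last without PEI-SWNT replicate 5. DESeq2 called 1383 and 1027. Against water the ranges were 934 to 1034 and 514 to 752. The plastid share differed by -1.87 to -1.58 percentage points with single libraries left out, and the mitochondrial share by -0.847 to -0.476, where 6 of 10 no longer passed 0.05. Of 143 named genes 101 kept their call in each of 25 settings. Replicate numbers were not used as pairs, and pairing was not tested. Deviations of same-numbered libraries correlated by 0.0046 to 0.246, all positive, and those of other pairs by -0.351 to 0.330. Not every library was closest to its own number, and a replicate block called 1395 and 1019 genes.

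Depth limited the low genes: a member with a few counts per library was left untested, treated libraries were shallower than untreated ones, and folds of nearly silent genes move with single reads. The counts came with no statement on strand or on reads with several matches, so tandem and overlapping genes are less certain. Lengths were missing for 146 genes, which were not tested. P-values measure the spread between 5 pools of leaves in 1 experiment.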

Other observations

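Several markers of developing epidermis were too low to enter the tests and are given here as counts, chosen after their values were seen. MUTE and EPF2 of the stomatal list and GL3 of the trichome list were also untested, and their counts are not given here. The markers below are thus not the full lists. GL2, a factor of trichome fate, had 71 to 167 counts per non-infiltrated library and 20 to 49 per PEI-SWNT library, at mean levels of 4.98 ± 1.61 and 1.68 ± 0.379 CPM (SD, n = 5). SPCH, which starts the stomatal lineage, had 6 to 63 and 2 to 12 counts, BASL, which polarises its divisions, 11 to 28 and 0 to 5, and ETC1, a repressor of trichome fate, 30 to 56 and 4 to 8. Water libraries were also below non-infiltrated ones in mean level for each of the 4, with 18 to 32 counts for GL2, 0 to 9 for SPCH, 0 to 7 for BASL and 8 to 17 for ETC1. GL1, another trichome factor, had at most 1 count in any of the 10 libraries, and the Col-0 label was not checked further.

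PI, a floral organ identity gene counted as a marker of flower tissue, was the exception among the markers. It had 28 to 91 counts per PEI-SWNT library against 0 to 11 in non-infiltrated, 0 to 4 in water and 1 to 9 in SWNT libraries. AP3, the usual partner of PI, had at most 4 counts in any PEI-SWNT library, AG 3 to 8 and AP1 0, so the rise was in 1 of the 4 flower markers. It was seen after the values were known and was not tested.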
